A study of Mus musculus with 28 samples.

Results

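Described here are 9 genes of Nodal signalling, taken by gene symbol from a fixed list and joined by gene ID across the deposited files: the ligand *Nodal*, its secreted inhibitors *Lefty1* and *Lefty2*, the co-receptor *Tdgf1*, the receptors *Acvr1b* and *Acvr2b*, the effector *Smad2*, and the intracellular inhibitors *Smad7* and *Skil*. The list was chosen with earlier results of these data known, so shares of the 9 set beside all genes are descriptions only. All 9 were among the 15384 genes with a value per RNA-seq library and among the 27179 genes of the chromatin RNA table. The RNA-seq came from E14 mouse ES cells (mESCs), a line of undifferentiated cells kept with 10 ng/ml LIF, after transfection with lentiviral vectors carrying either a scramble shRNA (control, n = 4) or a pair of shRNAs against *Ssrp1* (KD, n = 4). *Ssrp1* encodes a subunit of the histone chaperone FACT. Both groups were put under 2 μg/ml puromycin for 24 h from 48 h after transfection, and both carried ERCC spike-in RNA. Chromatin RNA came from 2 libraries of E14 mESCs, and the peaks of SSRP1 and SUPT16, the subunits of FACT, from 1 list per subunit called on both replicates together.

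Nodal is a secreted ligand of the TGF-β family that acts with the co-receptor encoded by *Tdgf1* (Cripto) on type II and type I activin receptors, which phosphorylate SMAD2 and SMAD3. The SMADs join SMAD4 and DNA-binding partners such as FOXH1 and raise transcription of *Nodal* itself and of *Lefty1* and *Lefty2*, whose products block the ligand and its co-receptor. The pathway is active in mESCs and, in the embryo, specifies mesendoderm and the left side of the body.

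The libraries held 4602278 to 6680919 recovered reads in the control and 9433193 to 19856032 in the KD, so that the KD values rest on more reads. *Ssrp1*, the targeted gene, lay at 223 to 261 in the control libraries and at 24.1 to 28.9 in the KD libraries, a log2 difference of -3.15 (SE 0.07). Values are the authors' signal scaled to library size unless stated, and fold changes are on the scale of log2(value + 0.5), KD minus control. A gene was called when its fold change exceeded 1 on the log2 scale in either direction and its adjusted p lay under 0.01 (limma with trend, Benjamini-Hochberg over all 15384 genes). By this rule 8.07% of all genes were called higher and 20.6% lower, and the median log2 fold change of all genes was -0.03. The mESC markers were present in both groups, and marker genes moved with the KD. Of 6 mESC markers 4 were called higher, and *Klf4* and *Esrrb* rose by less than the limit on size (0.81 and 0.83). The summed value of the mESC markers went from 938 to 1003 in the control libraries to 2099 to 2143 in the KD libraries. All 4 trophectoderm markers, 3 of 4 primitive endoderm markers, 3 of 4 fibroblast markers, and the 3 measured markers of stratified epithelium were called lower. The primitive endoderm marker *Dab2* fell by less than the limit on size (-0.83). Of 5 neural markers 1 was called higher and 2 lower, while *Sox1* and *Nes* were lower without passing the limit on size (-0.96 and -0.36). Neither of the 2 measured mesendoderm markers was called. These counts depend on the scaling. With spike-ins 6 of 6 mESC markers were called higher, beside 48.1% of all genes. On that scaling 1 of 4 trophectoderm and 0 of 4 primitive endoderm markers were called lower, beside 1082 of all 15384 genes. After quantile normalisation the counts were 0 of 6, 1 of 4, and 1 of 4, where 1518 of all genes were called higher and 1656 lower. The 3 epithelial and 3 fibroblast markers were called lower on both of these scalings as well, and of the neural markers only the 1 that rose was called. The epithelial markers summed to 132 to 161 in the control and 2.97 to 3.69 in the KD, and the fibroblast markers to 43.8 to 57.8 and 12.1 to 13.9, with *Flg* at 0 in 1 library. The part of these other cells in the differences below was not tested, and in bulk RNA fewer cells of a type and less RNA per cell cannot be told apart.

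The secreted inhibitors and the co-receptor gene rose in the KD. *Lefty1*, *Lefty2*, and *Tdgf1* passed both thresholds, all upwards, which is 3 of 9 genes beside 8.07% of all genes, and none was called lower. Because the genes were chosen with earlier results known, this share is no evidence of an excess. The calls of *Lefty1* and *Lefty2* may also not be separate, since reads can be shared between them. With the adjusted p alone, 8 of the 9 were higher (35.4% of all genes were), and the exception, *Acvr1b*, was lower with an adjusted p of 0.0108. In none of the 9 did the control and KD values overlap, but this held for 73.3% of all genes. The median log2 fold change of the 9 was 0.59. For each gene the two-sided exact permutation test over the 8 libraries gave p = 0.0286, the smallest that 4 against 4 allows.

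**Figure D1:**
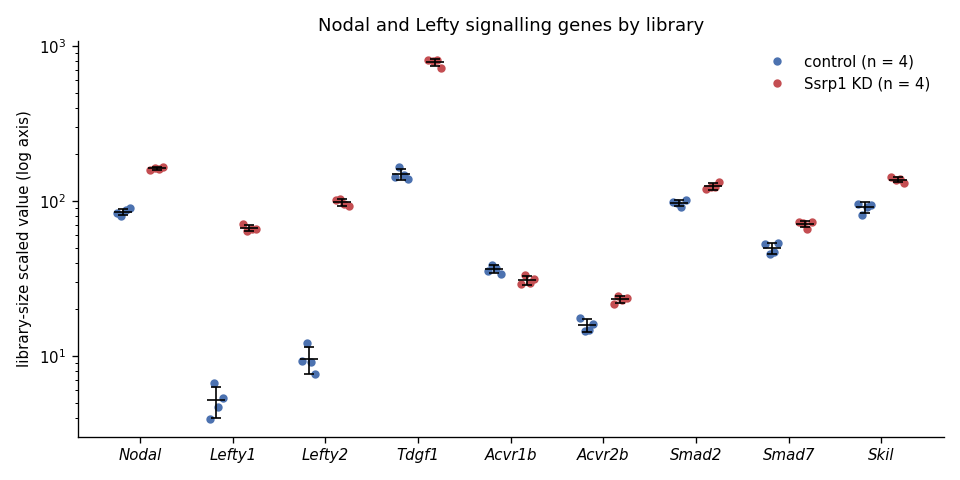
Library-size scaled value of the 9 genes (log axis) in each of the 4 control (blue) and 4 KD (red) libraries, with the group mean and SD as bars. *Lefty1* and *Lefty2* lie at 3.95 to 12.0 in the control libraries and at 64.3 to 102 in the KD libraries, whereas the *Acvr1b* groups lie next to each other.

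*Nodal*, the ligand, lies on chromosome 10 (chr10:61417972-61425337, plus strand). In the order of the replicate numbers, its values were 83.2, 80.0, 87.0, and 89.4 for the control and 159, 163, 162, and 166 for the KD. Every KD library stood well above the highest control library, with a spread within the groups of only a few units. The mean rose from 84.9 ± 4.16 to 162 ± 2.90 (SD, n = 4 each), a ratio of 1.91. The log2 fold change was 0.93 (95% interval 0.81 to 1.05, limma adjusted p = 3.31e-14), so *Nodal* passed the limit on p and missed the limit on size.

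*Lefty1* and *Lefty2* encode secreted antagonists of Nodal and lie near each other on chromosome 1 (*Lefty2* chr1:180893119-180899103 and *Lefty1* chr1:180935039-180938401, both on the plus strand), 35935 bp apart. *Lefty1* had values of 3.95, 6.71, 4.66, and 5.33 in the control and 70.7, 64.3, 66.1, and 66.1 in the KD. The control values rest on 26 to 39 reads per library, the KD values on 572 to 1140. *Lefty1* was in the lowest of 4 equal classes of genes by control expression, and every KD library lay far above every control library. Its mean rose 12.9-fold, from 5.16 ± 1.18 to 66.8 ± 2.72 (SD, n = 4 each), a log2 fold change of 3.59 (95% interval 3.35 to 3.84, limma adjusted p = 1.88e-19).

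*Lefty2* had values of 9.26, 12.0, 9.15, and 7.66 in the control (51 to 70 reads) and 102, 102, 94.9, and 92.5 in the KD (823 to 1743 reads). It rose in all 4 KD libraries by about as much as *Lefty1*. The means were 9.53 ± 1.83 and 97.8 ± 4.86 (SD, n = 4 each), a ratio of 10.3 and a log2 fold change of 3.31 (95% interval 3.10 to 3.52, limma adjusted p = 2.94e-20). Of all genes tested, 99.9% had a lower log2 fold change than *Lefty2*.

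Because the Lefty genes are closely similar copies, reads can be shared between them. The values were whole multiples of a single read, so counting in fractions was not seen. Whether shared reads were dropped or given whole to either gene is not known, so the division of reads between the 2 genes is uncertain. Their coding sequences are 1107 bases long each and differ at 90 positions (91.9% identity), with a longest identical run of 140 bases. Of the windows of 50 bases along the *Lefty1* transcript, 17.9% also occur in the *Lefty2* transcript, and of the windows of 100 bases 4.80% do.

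*Tdgf1*, the co-receptor gene, lies on the minus strand of chromosome 9 (chr9:110939608-110946158). The values were 142, 165, 148, and 139 in the control and 806, 800, 813, and 720 in the KD. The groups lay far apart, and KD replicate 4 was the lowest of the KD libraries. The mean rose from 148 ± 11.5 to 785 ± 43.2 (SD, n = 4 each), a ratio of 5.29 and a log2 fold change of 2.402 (95% interval 2.28 to 2.53, limma adjusted p = 7.70e-22). The mouse genome also holds *Tdgf1* pseudogenes, so some reads may be shared with them.

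Neither receptor gene was called, and their differences had opposite signs. *Acvr2b*, a type II receptor (chr9:119402501-119433515, plus strand), had values of 17.7, 14.5, 14.7, and 16.1 in the control and 21.7, 24.3, 22.9, and 23.7 in the KD. Every KD value was higher, and the log2 fold change was 0.54 (95% interval 0.34 to 0.75, limma adjusted p = 2.27e-05), below the limit on size. *Acvr1b*, the type I receptor ALK4 (chr15:101174125-101212601, plus strand), had values of 35.1, 38.9, 37.1, and 33.9 in the control and 28.9, 33.2, 29.6, and 31.5 in the KD. The highest KD value lay just under the lowest control value, and the log2 fold change was -0.23 (95% interval -0.40 to -0.07, limma adjusted p = 0.0108), which passed neither limit.

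The effector *Smad2*, which carries the signal to the nucleus (chr18:76241701-76311747, plus strand), had values of 99.1, 97.2, 91.3, and 101 in the control and 119, 122, 122, and 132 in the KD. All KD values were higher, by a log2 fold change of 0.35 (95% interval 0.23 to 0.47, limma adjusted p = 4.92e-06). *Smad7* (chr18:75367365-75395934, plus strand) encodes an inhibitory SMAD that acts at the receptors, and had values of 52.7, 45.8, 46.6, and 53.8 in the control and 73.0, 72.5, 65.7, and 72.8 in the KD. Its groups did not overlap either, although KD replicate 3 was lower than the other KD libraries, and the log2 fold change was 0.51 (95% interval 0.37 to 0.66, limma adjusted p = 2.27e-07). *Skil* (chr3:31095061-31122577, plus strand) encodes SnoN, a corepressor of SMADs, and had values of 96.2, 80.7, 92.0, and 94.5 in the control and 142, 136, 139, and 130 in the KD. The log2 fold change of *Skil* was 0.59 (95% interval 0.46 to 0.72, limma adjusted p = 1.89e-09). These 3 genes were higher in every KD library and stayed under the limit on size.

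When values were divided by exon length, the order of the genes changed between the groups. In the control, *Tdgf1* had the highest level per kb of exon (77.0 ± 5.99, SD, n = 4), followed by *Nodal* (40.6 ± 1.98). *Skil*, *Smad7*, *Acvr1b*, *Smad2*, and *Acvr2b* came next, between 13.5 and 9.21, and the ranges of neighbours in that order overlapped. *Lefty2* (3.87 ± 0.74) and *Lefty1* (3.22 ± 0.73) were lowest and overlapped each other. In the KD, *Tdgf1* (407 ± 22.4) and *Nodal* (77.4 ± 1.39) were again first, but *Lefty1* (41.6 ± 1.70) and *Lefty2* (39.7 ± 1.97) now came next, overlapping each other and above *Skil* (20.4 ± 0.74). *Smad2* and *Acvr2b* overlapped in the KD, and *Acvr1b* was lowest at 9.40 ± 0.59.

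The ratio of an inhibitor to the ligand within a library does not depend on a scaling factor per library. Per kb of exon, *Lefty1* stood at 0.0620, 0.109, 0.0700, and 0.0779 times the level of *Nodal* in control replicates 1 to 4 and at 0.582, 0.516, 0.534, and 0.521 times in the KD. *Lefty2* stood at 0.0962 ± 0.0232 times the level of *Nodal* in the control and 0.514 ± 0.0320 times in the KD (SD, n = 4). The ratio of *Tdgf1* to *Nodal* went from 1.91 ± 0.234 to 5.26 ± 0.365 (SD, n = 4). All 3 ratios were higher in every KD library than in any control library (two-sided exact permutation test, p = 0.0286 each, 0.0381 after adjustment over the 4 ratios tested). The ratio of *Lefty1* to *Lefty2* was 0.840 ± 0.174 in the control and 1.05 ± 0.0574 in the KD, and its groups overlapped (two-sided exact permutation test, p = 0.0857, also 0.0857 adjusted).

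Scaling to spike-ins moved the whole table, and the 9 genes with it. On that scaling the median log2 fold change of all genes was 0.95, and 87.2% of called genes were higher, against 28.2% with library size and 47.8% after quantile normalisation. The spike-in scaled values of *Nodal* were 55.9, 47.9, 58.3, and 80.1 in the control and 146, 302, 261, and 249 in the KD. The groups stayed apart, with a wider spread within the KD, where replicate 1 was lowest for all 9 genes. *Nodal* then had a log2 fold change of 1.95, which is 1.00 above the median of all genes, and *Lefty1*, *Lefty2*, and *Tdgf1* had 4.56, 4.30, and 3.42, which are 3.61, 3.35, and 2.47 above it. With spike-ins 8 of the 9 genes were called higher, but so were 48.1% of all genes. *Acvr1b* changed sign to 0.78, which is -0.17 relative to the median, and its groups overlapped (23.3 to 30.4 in the control and 26.6 to 61.5 in the KD). After quantile normalisation *Nodal* stood at 0.54 and *Smad2* at -0.01, while *Lefty1*, *Lefty2*, and *Tdgf1* stood at 4.03, 3.55, and 1.79 and were the 3 genes called.

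**Figure D2:**
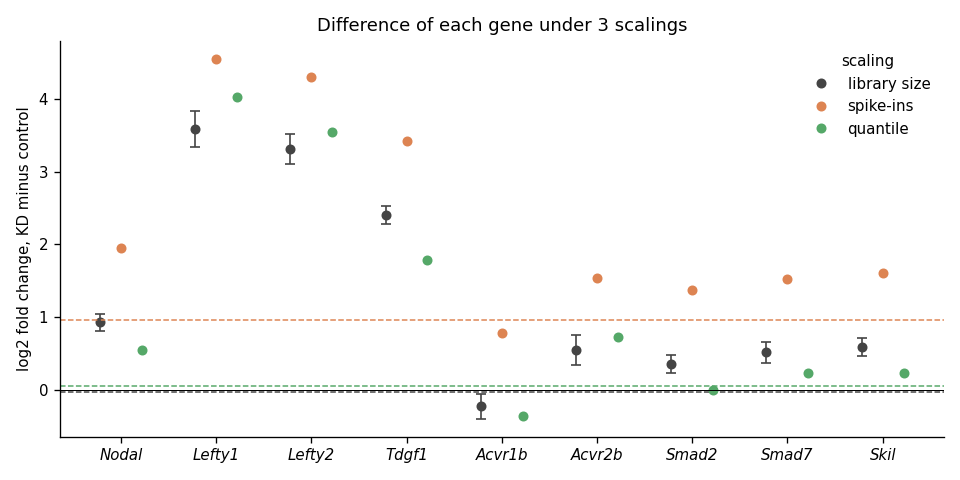
Log2 fold change (KD minus control) of the 9 genes with library-size scaling (grey, 95% interval as bars), spike-in scaling (orange), and quantile normalisation (green); dashed lines give the median of all genes on each scaling. *Lefty1*, *Lefty2*, and *Tdgf1* lie far above the line of their scaling on all 3, whereas *Acvr1b* lies below it on all 3.

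The genes nearest in pattern were found by Euclidean distance over the 8 values of log2(value + 0.5), each minus the control mean. For *Nodal* they were *Utp18* (distance 0.103, log2 fold change 0.92), *Etv5* (0.115 and 0.94), and *Fermt2* (0.131 and 0.92). For *Lefty2* the nearest gene was *Pdk1* (distance 0.360, log2 fold change 3.34), then *Trh* (0.714 and 2.97) and *Lefty1* (0.747). For *Lefty1* they were *Lefty2* (0.747), *Pdk1* (0.840), and the U3 snoRNA copy *Rnu3b3* (1.15 and 3.37), whose reads can be shared with other copies. On the log2 scale the control libraries of *Lefty1* (26 to 39 reads) were spread wider than those of *Nodal*, and its nearest genes were farther away. Of all genes, 90.1% had a lower log2 fold change than *Nodal* and 99.99% a lower one than *Lefty1*. The cause of the larger distances was not tested.

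Of 36 other genes of the pathway 28 had a value, of which 2 were called higher and 6 lower. These counts are close to the shares of all genes (8.07% higher and 20.6% lower). The median log2 fold change was -0.35 beside -0.03 for all genes. The ligands split: *Inhbb*, an activin subunit, rose from 12.99 ± 1.29 to 38.0 ± 2.65 (SD, n = 4, log2 fold change 1.52, limma adjusted p = 1.03e-13) and *Gdf3*, which shares receptors with *Nodal*, from 33.3 ± 1.59 to 68.6 ± 1.94 (1.03, adjusted p = 1.93e-13). *Tgfb1*, the ligand of another branch of the family, fell from 6.93 ± 1.98 to 2.48 ± 0.11 (log2 fold change -1.28, adjusted p = 3.07e-06). *Furin*, a convertase that cleaves the Nodal precursor, fell from 21.8 ± 3.24 to 6.50 ± 0.68 (-1.67, adjusted p = 7.42e-12).

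Of the 4 measured receptors and decoys, the TGF-β receptor genes *Tgfbr1* and *Tgfbr2* fell, with log2 fold changes of -1.07 and -2.38 (limma adjusted p = 1.50e-13 and 2.31e-12). *Tgfbr2* went from 14.3 ± 0.89 to 2.41 ± 0.65 (SD, n = 4). *Smad3*, the other receptor-activated SMAD of the pathway, fell from 68.0 ± 9.82 to 22.3 ± 1.38 (log2 fold change -1.58, limma adjusted p = 4.88e-15), whereas *Smad2*, *Smad4*, and the partner gene *Foxh1* were not called (0.35, -0.30, and 0.39). None of the 3 measured extracellular inhibitors and none of the 7 intracellular inhibitors other than the listed genes was called. With the adjusted p alone, the extracellular inhibitors *Dand5* and *Fst* were lower (-0.59 and -0.79) and none was higher. By that rule 4 of the 7 intracellular inhibitors were higher and 3 lower, namely *Ski*, *Smurf1*, and *Pmepa1* (-0.84, -0.56, and -0.89). With spike-ins these lower genes stood at 0.11 to 0.46, under the median of all genes. Among the 4 measured mesendoderm targets only *Sox17* was called, lower (-1.18, limma adjusted p = 1.36e-05), and *Eomes* and *Gsc* had -0.58 and -0.53. With spike-in scaling the median of the 28 genes was 0.66, below the 0.95 of all genes. On that scaling, of the 6 genes called lower only *Tgfbr2* was called (-1.43, limma adjusted p = 5.61e-06). The calls of *Tgfbr1*, *Sox17*, *Tgfb1*, *Smad3*, and *Furin* were lost, with log2 fold changes of -0.05, -0.26, -0.36, -0.57, and -0.68 (limma adjusted p = 0.869, 0.441, 0.281, 0.0633, and 0.0271). After quantile normalisation *Gdf3*, *Tgfb1*, and *Sox17* were not called (0.82, -0.18, and -0.06), whereas the inhibitor gene *Ski* was called lower (-1.10).

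**Figure D3:**
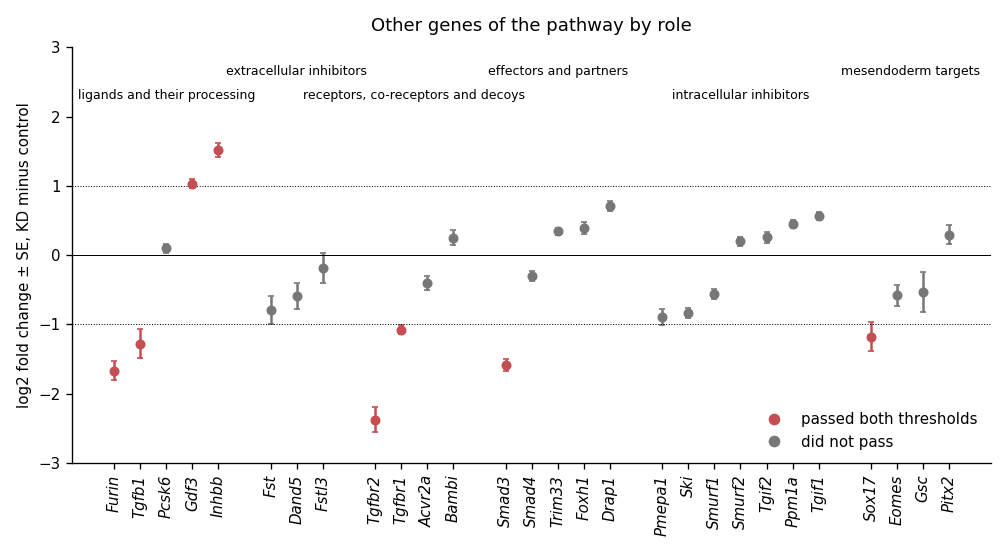
Log2 fold change ± SE (KD minus control) of the 28 measured genes of the pathway list, grouped by role, with the limits of 1 and -1 dotted and the genes that passed both thresholds in red. The 2 red genes above the upper limit are the ligands *Gdf3* and *Inhbb*, and the 6 below the lower limit include *Smad3* and both TGF-β receptor genes.

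The FACT subunits were mapped in E14 mESCs, and the authors assigned each peak to its nearest gene. All 9 genes carried at least 1 SSRP1 peak (29 peaks in all), beside 36.0% of all genes with a value, and 5 of the 9 carried a SUPT16 peak (16 peaks), beside 18.6%. Within 1000 bp of an annotated start, 6 had an SSRP1 peak (23.5% of all genes) and 4 a SUPT16 peak (13.8%). Such shares rise with expression, from 24.0% of genes with an SSRP1 peak in the lowest of 4 equal classes by control expression to 50.1% in the highest. *Lefty1* and *Lefty2* were in the lowest class and *Nodal*, *Tdgf1*, *Smad2*, and *Skil* in the highest. The lists hold no heights, so occupancy could not be compared between genes.

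**Figure D4:**
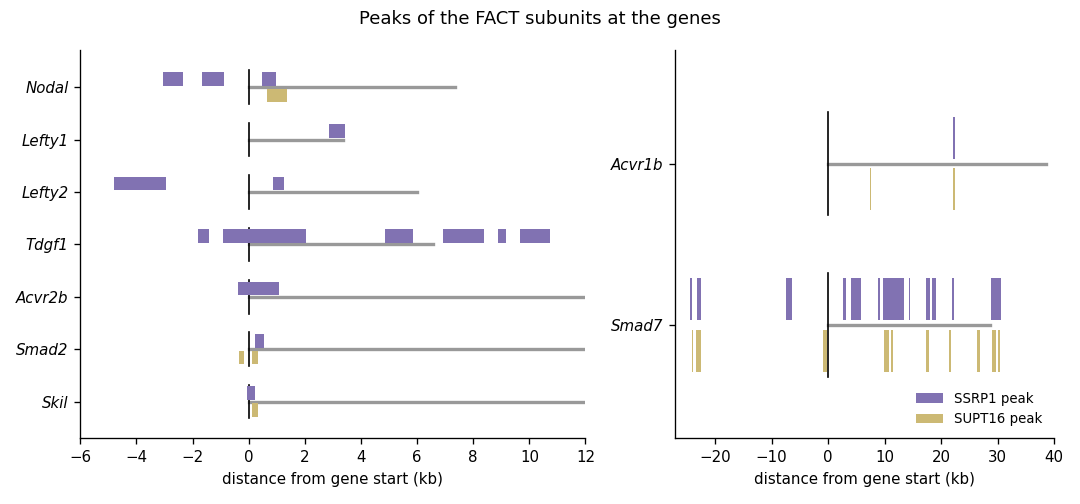
Peaks of SSRP1 (purple) and SUPT16 (yellow) by distance from the gene start in kb, in the direction of transcription, with the gene body as a grey line cut at the axis end. The *Nodal*, *Smad2*, and *Skil* peaks of both subunits sit close to the start, *Smad7* carries 12 and 10 peaks along and around the gene, and 1 *Smad2* peak lies beyond the axis.

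At the Lefty and *Tdgf1* genes only SSRP1 peaks were listed. *Lefty2* had 2, one of 1862 bp upstream (chr1:180888303-180890164, its near edge at -2944 bp from the nearest annotated start) and one of 392 bp over the first intron and the second exon (chr1:180893987-180894378). *Lefty1* had a single peak of 588 bp at the last exon (chr1:180937891-180938478). *Tdgf1* was assigned 6, more than 97.6% of the genes with a peak, but 3 of these lay downstream of the gene and 1 upstream. The longest (2940 bp, chr9:110944135-110947074) covered the start. At *Nodal*, 2 SSRP1 peaks lay upstream and another, at chr10:61418463-61418952, overlapped the end of exon 1 and the first intron, where it shared 322 bp with the single SUPT16 peak (chr10:61418631-61419330). The receptor gene *Acvr2b* had 1 SSRP1 peak of 1470 bp over a start and no SUPT16 peak. *Acvr1b* had its SSRP1 peak in an intron, 22101 bp from the start, overlapping a SUPT16 peak by 294 bp. *Skil* had 1 peak of each subunit at its start, overlapping by 112 bp.

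The 3 sequences that follow are shown because they lie in these peaks at the genes of the ligand, an inhibitor, and the co-receptor, and hold the letters TGTNNATT, a form of the motif that FOXH1 binds. N stands for any base, both strands were searched, and capitals mark this motif and CAGAC, the box bound by SMADs (or their reverse complements). The *Lefty2* window, chr1:180888788-180889087, lies in the upstream SSRP1 peak and was centred on its 2 matches, at -4226 and -4143 bp from the gene start. The *Nodal* window, chr10:61419031-61419330, is the end of the SUPT16 peak in the first intron, with 2 matches at 1242 and 1327 bp after the start. The *Tdgf1* window, chr9:110946109-110946408, is the RefSeq promoter on the minus strand and lies inside the long SSRP1 peak, with 2 matches at -94 and -120 bp from the start. All are from GRCm38.p6 and printed on the strand of the gene.
Lefty2: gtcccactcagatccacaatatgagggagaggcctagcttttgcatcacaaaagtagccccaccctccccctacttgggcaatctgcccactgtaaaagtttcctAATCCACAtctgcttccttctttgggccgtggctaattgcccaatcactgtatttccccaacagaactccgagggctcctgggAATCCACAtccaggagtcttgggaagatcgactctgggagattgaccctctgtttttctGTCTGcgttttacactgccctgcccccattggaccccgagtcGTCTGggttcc
Nodal: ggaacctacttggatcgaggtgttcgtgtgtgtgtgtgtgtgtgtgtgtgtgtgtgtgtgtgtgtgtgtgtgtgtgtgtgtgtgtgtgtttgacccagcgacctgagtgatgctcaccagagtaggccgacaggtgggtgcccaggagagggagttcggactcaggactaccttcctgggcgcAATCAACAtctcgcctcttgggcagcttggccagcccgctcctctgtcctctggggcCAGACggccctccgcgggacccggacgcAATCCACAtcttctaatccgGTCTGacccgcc
Tdgf1: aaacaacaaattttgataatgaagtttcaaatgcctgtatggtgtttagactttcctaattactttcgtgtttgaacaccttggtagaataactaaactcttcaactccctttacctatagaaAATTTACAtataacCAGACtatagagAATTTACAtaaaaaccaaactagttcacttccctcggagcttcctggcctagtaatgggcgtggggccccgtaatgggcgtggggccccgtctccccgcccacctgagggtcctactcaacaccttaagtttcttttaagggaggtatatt

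The motif was found in 12.2% of 32851 RefSeq promoters of the same length, at least 2 times in 1.43%, and in 9.80% of the central 300 bases of 9916 SSRP1 peaks. Over the whole peaks, the upstream *Lefty2* peak held 2 matches where the mean density of SSRP1 peaks gives 0.700, the long *Tdgf1* peak 4 where it gives 1.10, and the *Nodal* SUPT16 peak 2 where it gives 0.263. These peaks were picked because they hold the motif, so counts above the mean density follow from the choice and are no result. No density was taken for SUPT16 peaks. Of CAGAC these peaks held 10 matches against 4.96 at the mean density (*Lefty2*), 5 against 7.83 (*Tdgf1*), and 2 against 1.86 (*Nodal*). CAGAC was common, with 49.6% of promoters holding it. A GC-rich SMAD motif, GGCGC, was also searched and is not marked in the sequences. The same peaks held 0 matches of it against 6.15 at the mean density (*Lefty2*), 2 against 9.71 (*Tdgf1*), and 3 against 2.31 (*Nodal*). The promoters of *Nodal*, *Acvr1b*, and *Acvr2b* held no TGTNNATT, and the *Lefty1* peak, the inner *Lefty2* peak, and the peaks of *Acvr1b*, *Acvr2b*, and *Skil* held none either. At *Nodal* the SSRP1 peaks of 686 and 490 bp held none and that of 784 bp held 1. At *Tdgf1* the peaks of 1078, 294, 1470, and 392 bp held none and that of 980 bp held 1. The peaks of *Smad2* and *Smad7* were not searched. These matches are letters in a window and were not tested for binding.

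At *Smad7*, 12 SSRP1 peaks and 10 SUPT16 peaks were listed, from upstream of the gene, through its introns, to the region after it, and 5 of the SSRP1 peaks overlapped a SUPT16 peak. The number of SSRP1 peaks exceeded that of 99.5% of genes with a peak. None of the *Smad7* SSRP1 peaks lay within 1000 bp of a start, the nearest being 1410 bp away, whereas 1 SUPT16 peak lay at -255 bp. *Smad2* had an SSRP1 peak over an annotated start, overlapping a SUPT16 peak by 98 bp, and a second SSRP1 peak that was assigned to it from 282514 bp away.

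Chromatin RNA gave the level of the same genes in RNA bound to chromatin, as raw counts in 2 libraries of 3441643 and 3393923 counts, of which 63.8% and 60.7% fell on snoRNA genes and 5.56% and 9.35% on protein-coding genes. Of the 9 genes, *Tdgf1* had the most counts, 76 (95% Poisson interval 59.9 to 95.1) in library 1 and 165 in library 2. *Nodal* had 24 and 32, *Lefty1* 13 and 10, and *Lefty2* 11 and 24. *Acvr1b* had only 2 in library 1 and 19 in library 2, so its level is not settled at this depth. *Smad7* had 34 and 85, *Skil* 27 and 76, *Smad2* 24 and 51, and *Acvr2b* 5 and 9. Intervals cover counting error only.

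As counts per 1000000 (CPM) and per kb of exon, *Tdgf1* was again first in both libraries, at 11.5 and 25.2. *Nodal* stood at 3.33 and 4.50 and *Smad7* at 2.22 and 5.64. *Lefty1* (2.35 and 1.84) and *Lefty2* (1.30 and 2.87) lay close to *Skil* (1.17 and 3.33), and below these came *Smad2*, *Acvr2b*, and *Acvr1b*, with means of 1.20, 1.20, and 0.943. The Lefty genes, which were lowest of the 9 in the RNA-seq of control cells, ranked 5 and 6 of the 9 here, but the counting intervals of most neighbours overlap. Across the 9 genes the mean chromatin RNA level and the control RNA-seq level per kb had a Spearman rho of 0.633 (n = 9 genes, which share the same libraries and exon lengths). Totals differed between the libraries in the share of protein-coding counts, and per 1000000 protein-coding counts the 9 genes summed to 1129 and 1484.

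**Figure D5:**
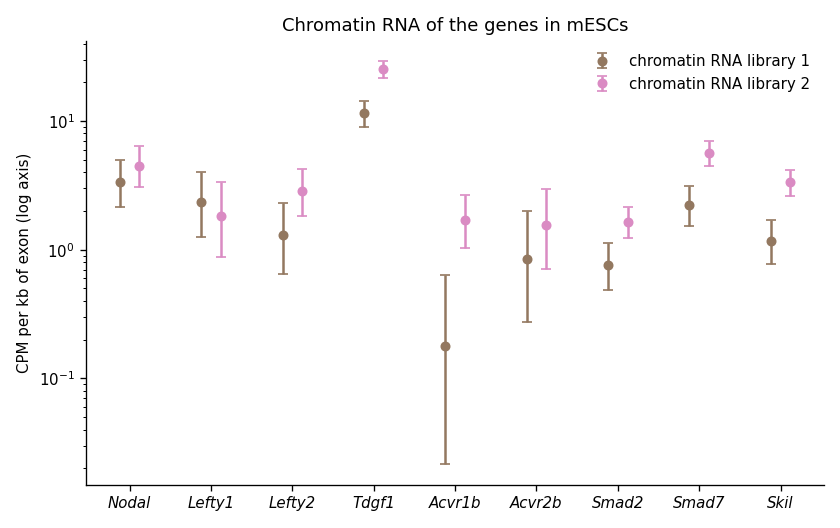
Chromatin RNA of the 9 genes in mESCs as CPM per kb of exon (log axis) in library 1 (brown) and library 2 (pink), with 95% Poisson intervals of the counts. *Tdgf1* is highest in both libraries at 11.5 and 25.2, and the low count of *Acvr1b* in library 1 has the widest interval.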

How the data were processed

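RNA-seq was deposited by the authors as a signal per gene and library, made with STAR, mm10, featureCounts, a filter at 1 CPM, and TMM factors in edgeR, in 2 scalings (library size and ERCC spike-ins). Each chromatin RNA count was deposited raw. For peaks the authors used PePr on both replicates together and ChIP-Enrich for the assignment to genes. The deposited tables of KD and of neural progenitors against mESCs also hold the authors' fold changes and p-values, which were not used.

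From the signal, log2(value + 0.5) was tested with limma 3.58.1 (trend, 4 against 4, 15384 genes, R 4.3.3), with calls at a fold change over 1 (log2, either direction) with an adjusted p under 0.01. Whole reads were recovered from the values (100% of values within 0.1 of a whole read) and tested with edgeR 4.0.16 and DESeq2 1.42.0 as alternatives. The other alternatives were TMM, quantile, and spike-in scalings, pseudocounts of 0.1 and 2, a filter at a mean above 5, no trend, a loess correction for exon length, a replicate block, each library left out, and the adjusted p alone. The fit was tested on simulated data. No 2 libraries agreed within sampling noise.

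The 9 genes and the lists were chosen with earlier results of these data known. Named were all 9, *Ssrp1*, the pathway genes past both thresholds, and the 3 genes nearest in pattern to *Nodal*, *Lefty1*, and *Lefty2*. Other genes were named after their values were seen. Positions are mm10 (GRCm38) and compared with RefSeq on GRCm38.p6. Python 3.11.15, pandas 2.3.3, numpy 2.4.6, scipy 1.17.1, and matplotlib 3.10.9 were used. MNase-seq, ATAC-seq, and NET-seq were not analysed here.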

Additional observations from a re-analysis of the deposited data

Results flagged for a closer look

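In 2 of the 18 groups of 4 libraries examined (9 genes, control and KD), 1 library stood apart from the other 3 by Dixon's criterion at the 95% level, which chance passes in about 1 in 20 groups. *Tdgf1* was at 720 in KD replicate 4, against 800 to 813 in the other KD libraries, and without that library its log2 fold change was 2.44 in place of 2.402. *Smad7* was at 65.7 in KD replicate 3, against 72.5 to 73.0 in the others, and without that library its log2 fold change was 0.55 in place of 0.51. Neither call changed.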

How the results depend on the processing

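The calls of *Lefty1*, *Lefty2*, and *Tdgf1* held in all 19 other fits, with log2 fold changes of 3.28 to 4.56, 3.13 to 4.30, and 1.79 to 3.42. The number of the 9 genes called was 3 in 18 of them and 8 with spike-in scaling, and it was also 8 with the adjusted p alone. The number of pathway genes called, 8 of 28, became 13 with spike-in scaling, where 7394 of all 15384 genes were called higher and 1082 lower. With the adjusted p alone it was 23, of which 9 were higher and 14 lower. By that rule 35.4% of all genes were higher, and the share of all genes that were lower was not taken. Leaving out 1 library at a time gave 3 of the 9 genes in every case and 7 to 8 pathway genes. *Acvr1b* reversed to 0.78 with spike-in scaling and *Smad2* to -0.0087 after quantile normalisation, and the causes were not tested. Other genes outside the calls also moved by over 1.5 times: after quantile normalisation *Nodal* stood at 0.54, *Acvr1b* at -0.36, and both *Smad7* and *Skil* at 0.23, and with the correction for exon length *Smad2* stood at 0.80 and *Skil* at 0.89. Restricting peaks to at least 500 bp lowered the genes with an SSRP1 peak from 9 to 6, those with one near a start from 6 to 3, those with a SUPT16 peak from 5 to 2, and those with a SUPT16 peak near a start from 4 to 2, since shorter peaks are left out. The shares of all genes under this limit on peak length were not taken, so these lower counts cannot be set beside them. Over all genes, 1242 were called higher and 3163 lower, against 7394 and 1082 with spike-in scaling, 1518 and 1656 after quantile normalisation, and 1201 and 2024 among the genes with a mean above 5.

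With a replicate block, 3 of the 9 genes and 8 pathway genes were called, as without it. The numbers were not taken to pair libraries, since the deviations of same-numbered libraries had correlations of -0.06 to 0.02 and no control library correlated best with the KD library of its own number. The pseudocount could not be varied for chromatin RNA, which was described without a log. Depth limits the control values of *Lefty1* (26 to 39 reads) and the chromatin counts, of which the lowest was 2.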
